A study of Mus musculus with 12 samples.

Results

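The vector control of a liver gene transfer experiment was compared with saline: livers of mice given an adeno-associated virus carrying green fluorescent protein (AAV-GFP) against livers of mice given phosphate-buffered saline (PBS). The samples were chosen by their titles, 4 AAV-GFP and 4 PBS, which makes 8 of the 12 arrays of the series. The other 4 arrays are livers given AAV-hGRB, a vector for the human glucocorticoid receptor beta. All animals, the PBS group included, were male C57BL/6 mice of 3 months with a liver knockout of the glucocorticoid receptor (GR). There is no group with an intact receptor, so every value below describes liver that is GR-null by its labels. The Cre driver of the knockout, the vector's promoter, serotype and dose, and the time between injection and sampling are not stated in the labels or file headers. The labels number the samples without saying that each came from its own animal, so intervals and p-values here reflect only how far these samples spread, which may in part be technical.

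Adeno-associated virus delivers a DNA genome that stays mostly outside the chromosomes, and hepatocytes take up many serotypes well. Viral DNA and capsid can be sensed by Toll-like receptors and cytosolic sensors, which leads to type I interferon and to the genes it induces. GR is the receptor through which cortisol and corticosterone act. In liver it switches on enzymes of glucose production and amino acid breakdown, and it takes part in growth hormone signalling through STAT5 and in restraining inflammation. The comparison therefore asks how AAV with a reporter cargo and saline compare in a liver labelled as a knockout of this receptor.

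Each liver RNA was read on its own one-colour Agilent array. A level below is the log2 of a probe's intensity, less the 75th percentile of such log2 values on its array. The test covered 24995 of 41174 probes, those that stood well above background on 4 or more of the 8 arrays, and 17842 genes with 1 probe each. Between 22600 and 26651 probes per AAV-GFP array and between 23000 and 27317 per PBS array were well above background. The tissue is liver by its markers: all 15 tested genes of a list of 17 hepatocyte genes were above background on all 8 arrays, and the level of albumin (Alb) was 10.71 ± 0.33 for AAV-GFP and 10.52 ± 0.30 for PBS (SD, n = 4). Slides 1, 5 and 6 of the array each held 1 AAV-GFP and 1 PBS sample, and AAV-GFP 4 and PBS 1 lay on slides of their own, slide 4 and slide 2. AAV-GFP 4 was also scanned on another day than the other 11 arrays of the series. AAV-GFP 3 was the dimmest array of the series, with a median intensity of 30.3, where PBS 3, the next lowest, had 42.3. Its 75th percentile of log2 intensity was 7.71, against 8.45 in PBS 3. Its 22600 probes well above background were the fewest. The part of this low signal in the differences of AAV-GFP 3 described below was not tested. AAV-GFP 3 stood apart from the rest. Its correlation with the other 7 arrays was 0.903 to 0.963, against 0.961 to 0.987 among those, and log2 changes and list medians that turned sign or moved by over 1.5 times without it are given both ways, apart from medians within 0.1 of 0 in both.

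**Figure D1:**
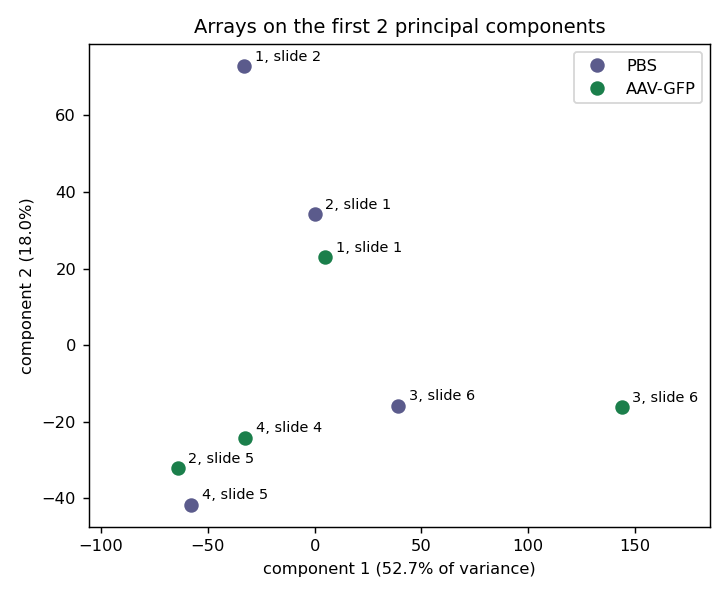
The 8 arrays are plotted on the first and second principal components of the tested probes, labelled by replicate and slide, with PBS in purple and AAV-GFP in green. Component 1 (52.7% of the variance) sets AAV-GFP 3 on slide 6 apart from the other 7 arrays, and neither component separates the groups.

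The receptor gene itself, Nr3c1, was at overlapping levels in both groups. Its level was 0.48, 0.36, 0.46 and 0.05 in AAV-GFP 1 to 4 and 0.14, 0.43, 0.40 and 0.49 in PBS 1 to 4, a log2 change of -0.03 (95% confidence interval -0.41 to 0.35) whose sign turned under other settings and which was -0.07 without AAV-GFP 3. No probe of this gene is stated to lie in the deleted part, so this level does not check the knockout.

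No gene passed the test between AAV-GFP and PBS. Limma called 0 of 24995 probes (0% called), and the lowest adjusted p was 0.999. Before adjustment 413 probes (1.65%) lay under 0.05, fewer than the 1249.75 that uniform p-values would give. The count of calls was 0 under each of the alternatives run, with 85 (normexp background correction) to 2270 (array weights) probes at an unadjusted p under 0.05. The quartiles of the log2 changes over the tested probes were -0.20 and 0.19. The median standard error of a change was 0.299. For 11271 of 17842 genes (63.2%) the 95% interval lay within 2-fold in either direction, and for 96.8% within 4-fold. For genes outside the first share, the interval reached past 2-fold in at least one direction.

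**Figure D2:**
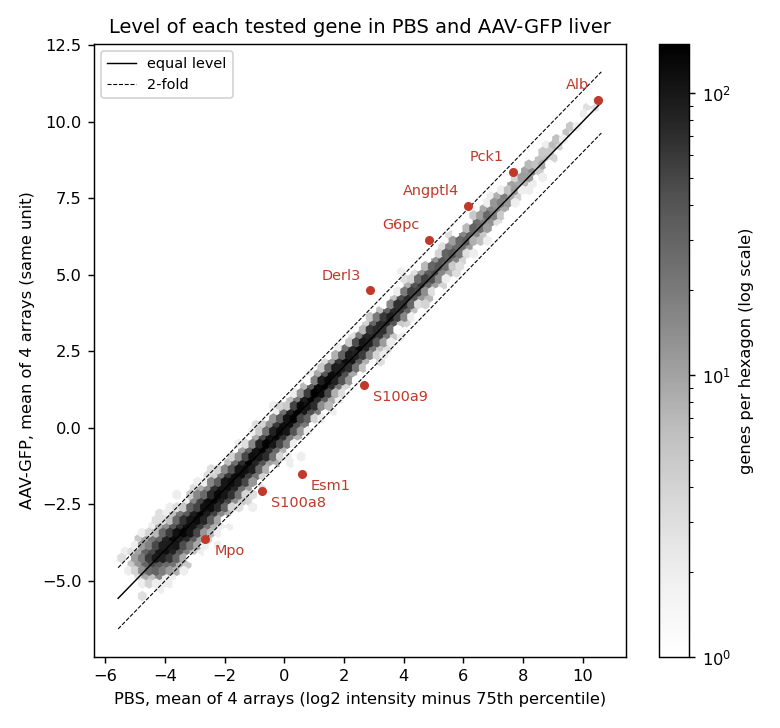
Each hexagon counts tested genes by their mean level in PBS (horizontal) and in AAV-GFP (vertical), both as log2 intensity minus the 75th percentile over 4 arrays, with solid and dashed lines at equal level and at 2-fold. Most genes lie inside the dashed lines, and the red points are genes described in the text, from Mpo and S100a8 at the low end to Alb at the high end.

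The genes named next are those of lowest unadjusted p among the genes whose 4 AAV-GFP arrays lay all above or all below the 4 PBS arrays. None passed the threshold. Such separation was met by 167 of 17842 genes (0.936%), 104 with AAV-GFP higher (0.583%) and 63 with AAV-GFP lower (0.353%). The 12 named on the higher side were Derl3, Fam3b, Angptl4, Slc25a25, Wnt2, Sbsn, Dscc1, Lrp2bp, Adh6-ps1, Slc35g1, S100b and Lnpk, and 8 of these 12 were above background on all 8 arrays. The 12 on the lower side were Ephx3, Clcn6, Olfr1230, Zfp521, S100a8, Stac, Esm1, Col15a1, Mpo, S100a9, Aph1b and Cd2, of which 6 were above background on all 8 arrays.

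Angptl4 and Slc25a25, both genes of energy metabolism, stood among the higher ones. Angptl4, a secreted inhibitor of lipoprotein lipase (probe at chr17:31849774-31849833 on mouse build mm7), was at 6.99, 7.09, 7.41 and 7.53 in AAV-GFP 1 to 4 and at 5.84, 6.26, 6.91 and 5.59 in PBS 1 to 4. Its lowest AAV-GFP array lay just above its highest PBS array, and the log2 change was 1.10 (2.15-fold, 95% interval 0.44 to 1.76). Within slides 1, 5 and 6 the difference was 0.73, 1.50 and 0.50.

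Slc25a25, a mitochondrial carrier that exchanges ATP-magnesium for phosphate (chr2:32422066-32422125, mm7), was at 5.71, 4.75, 5.33 and 4.89 in AAV-GFP and at 3.52, 3.94, 4.23 and 3.73 in PBS. The groups did not overlap, and the change was 1.32 (2.49-fold, interval 0.48 to 2.15). Its 3 tested probes gave 1.05 to 1.32, and the slides gave 1.77, 1.02 and 1.10.

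The enzymes of glucose release lay in the same direction with groups that overlapped. Pck1, the phosphoenolpyruvate carboxykinase of gluconeogenesis, was at 8.21, 8.04, 9.06 and 8.18 in AAV-GFP and at 7.41, 7.61, 8.10 and 7.50 in PBS. PBS 3 was above AAV-GFP 2, and AAV-GFP 3 was far above the others of its group. The change was 0.72 (interval 0.13 to 1.30), or 0.49 without AAV-GFP 3. G6pc, the glucose-6-phosphatase that completes glucose release, was at 6.54, 5.27, 6.04 and 6.69 in AAV-GFP and at 3.39, 5.27, 5.80 and 4.91 in PBS, a change of 1.29 (interval 0.06 to 2.52). PBS 1 was its lowest array by a wide margin, and with the slide as a block the G6pc change was 0.62. In AAV-hGRB livers, compared with the same PBS arrays, Angptl4 stood at 0.08, Slc25a25 at -0.41, Pck1 at 0.10 and G6pc at -0.08. The AAV-GFP and AAV-hGRB differences share their PBS samples.

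Their pathway as a list, with Pck1 and G6pc included, was near even. Of 17 tested gluconeogenesis genes (19 listed), 9 were positive, and the median change was 0.03 beside 0.02 over all genes. Pck1 and G6pc were themselves the 2 members with an unadjusted p under 0.05, both higher (background 0.835%). The aminotransferases Tat and Gpt stood at 0.29 and -0.34, the latter -0.15 without AAV-GFP 3. Genes of fatty acid oxidation, a list that also holds Angptl4, had 14 of 24 positive and a median of 0.02. That median was 0.21 without AAV-GFP 3, whose list level of 4.33 was the lowest of its group. Genes of glycolysis and lipogenesis had 8 of 16 positive and a median of 0.01, or -0.19 without AAV-GFP 3, with the liver pyruvate kinase Pklr at -0.54 (interval -1.08 to -0.00).

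Derl3, which helps to draw misfolded proteins out of the endoplasmic reticulum for degradation (chr10:75551409-75551468, mm7), had the lowest p on the higher side. It was at 3.82, 4.21, 4.67 and 5.25 in AAV-GFP and at 2.05, 2.87, 3.74 and 2.79 in PBS, with AAV-GFP 1 just above PBS 3. Its change was 1.63 (3.09-fold, interval 0.71 to 2.55), and the slides gave 0.96, 1.42 and 0.93. Against the same PBS arrays AAV-hGRB stood at 1.24. Other genes of endoplasmic reticulum stress went both ways: 8 of 15 were positive, the median was 0.05, and 1 gene in each direction had an unadjusted p under 0.05 (background 0.835% higher and 0.869% lower). Dnajb9, a co-chaperone of that compartment, stood at -1.04 (-0.53 without AAV-GFP 3) and Trib3, a pseudokinase induced by the stress factor ATF4, at 0.72. Asns, the asparagine synthetase, ranged from -1.13 in AAV-GFP 1 to 5.31 in PBS 4, a change of -2.13 with an interval of -4.34 to 0.07.

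**Figure D3:**
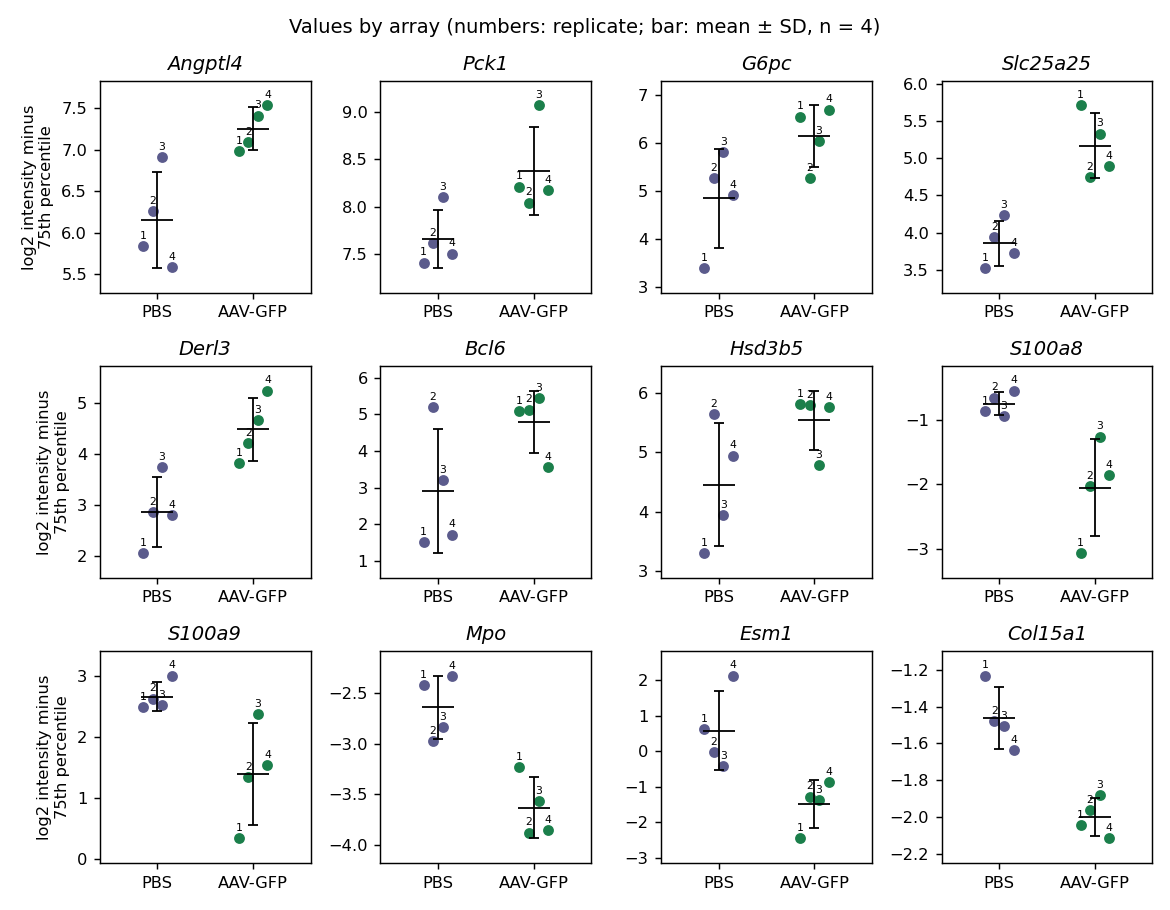
Each panel shows 1 gene, with the level in log2 intensity minus the 75th percentile on the vertical axis, 4 PBS arrays on the left and 4 AAV-GFP arrays on the right, each point numbered by replicate, and the bars at mean ± SD. The groups do not overlap for Angptl4, Slc25a25, Derl3, S100a8, S100a9, Mpo, Esm1 and Col15a1, and they do for Pck1, G6pc, Bcl6 and Hsd3b5.

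Of the other genes higher in AAV-GFP, Wnt2, a Wnt ligand of liver endothelial cells, stood at 1.04 (interval 0.36 to 1.71). S100b, a calcium-binding protein, stood at 1.62, with slides at 0.27, 3.91 and 1.29, the largest being on slide 5. Fam3b, a secreted cytokine-like protein, and Dscc1, a subunit of the cohesion clamp loader, stood at 1.28 and 1.17. Both were above background on all 4 AAV-GFP arrays but on only 1 and 2 of the 4 PBS arrays, so they entered the test mainly through the group in which they were higher. With normexp background correction their changes were 0.39 and 0.37, and without AAV-GFP 3 they were 1.07 and 1.03. The remaining 5 were between 0.65 (Lnpk) and 1.11 (Lrp2bp).

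Among the lower genes, Esm1, a proteoglycan secreted by endothelial cells (chr13:110373894-110373953, mm7), had the largest change of the 12. It was at -2.46, -1.28, -1.37 and -0.86 in AAV-GFP and at 0.62, -0.02, -0.41 and 2.13 in PBS. PBS 4 was far above the other arrays, and the change was -2.07 (4.21-fold lower, interval -3.41 to -0.74), or -1.45 with normexp. Col15a1, a basement membrane collagen, had little spread within groups, at -2.04, -1.96, -1.88 and -2.12 in AAV-GFP and -1.23, -1.48, -1.51 and -1.64 in PBS, a change of -0.54 (interval -0.88 to -0.19). Lyve1, a hyaluronan receptor of sinusoidal and lymphatic endothelium, stood at -0.50 with overlapping groups. Endothelial markers as a list were near even, with 7 of 12 positive, a median of 0.02 and all 12 intervals within 2-fold.

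The dimmest lower genes have only a bound. Ephx3, an epoxide hydrolase, and Clcn6, an endosomal chloride-proton exchanger, were above background on 0 of 4 AAV-GFP arrays and on 4 of 4 PBS arrays. Both thus entered the test only through PBS, the group in which they were higher. On the scale of the main fit, Ephx3 was at least 1.72-fold lower in AAV-GFP and Clcn6 at least 1.47-fold. The bound takes, on every AAV-GFP array, the higher of the probe's measured level and the dimmest level that still counted as above background. It is taken on group means and leaves out the spread between arrays. With normexp their log2 changes shrank to -0.21 and -0.10. These are smaller than the bound, which therefore holds only for the main background setting. Ephx3 stood at -1.32 in AAV-hGRB against the same PBS arrays. Aph1b, a subunit of gamma-secretase, stood at -1.29 and Stac, an adaptor of muscle and nerve, at -1.19. The odorant receptor Olfr1230 and the zinc finger gene Zfp521 were dim, at -1.07 and -0.84, and at -0.16 and -0.19 with normexp.

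Markers of neutrophils, the short-lived granulocytes that enter liver from blood, stood lower in AAV-GFP 1, 2 and 4 than in any PBS liver by their mean level, with no gene past the threshold. S100a8 and S100a9 encode the subunits of calprotectin, an abundant protein of neutrophil cytosol. Their start sites lie on chromosome 3, and the 250 bases before each are shown because the genes are neighbours and stood lower together. The sequences are RefSeq's on GRCm38.p6, at chr3:90668821-90669070 (plus strand) and chr3:90695722-90695971 (minus strand), in lower case with any TATAAA on either strand in capitals.
S100a8: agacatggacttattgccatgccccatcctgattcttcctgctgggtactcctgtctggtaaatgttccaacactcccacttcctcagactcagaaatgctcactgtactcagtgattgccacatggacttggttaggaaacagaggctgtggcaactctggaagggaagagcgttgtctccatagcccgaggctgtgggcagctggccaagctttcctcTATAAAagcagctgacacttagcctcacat
S100a9: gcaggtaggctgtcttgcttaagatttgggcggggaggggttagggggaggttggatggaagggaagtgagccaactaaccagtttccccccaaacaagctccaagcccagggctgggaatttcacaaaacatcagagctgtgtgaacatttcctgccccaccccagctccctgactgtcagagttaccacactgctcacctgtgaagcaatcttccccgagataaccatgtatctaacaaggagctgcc
S100a8 holds 1 TATAAA and S100a9 holds 0 in this window. Of 27025 promoters of that table, counted over the same window, 14.3% hold it, and of the 9 neutrophil genes with an entry 1 does. Of the 10848 tested genes with an entry, 10% hold it.

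S100a8 was at -3.07, -2.02, -1.26 and -1.86 in AAV-GFP 1 to 4 and at -0.86, -0.66, -0.94 and -0.55 in PBS 1 to 4. S100a9 was at 0.34, 1.35, 2.38 and 1.54 in AAV-GFP and at 2.49, 2.63, 2.53 and 3.01 in PBS. For both, AAV-GFP 1 was lowest and AAV-GFP 3 nearest to the PBS arrays, without overlap. The changes were -1.30 (2.46-fold lower, interval -2.06 to -0.54) and -1.26 (2.40-fold lower, interval -2.10 to -0.42). Within slides 1, 5 and 6 they were -2.40, -1.47 and -0.32 for S100a8 and -2.29, -1.66 and -0.14 for S100a9.

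Mpo, the peroxidase of neutrophil granules, was at -3.23, -3.88, -3.57 and -3.86 in AAV-GFP and at -2.42, -2.98, -2.83 and -2.33 in PBS, a change of -0.995 that was -0.31 with normexp. Cxcr2, the chemokine receptor that draws neutrophils out of bone marrow, was at -5.56, -5.13, -3.40 and -4.29 in AAV-GFP, with 1 of these arrays above background, and at -3.60, -3.70, -3.32 and -3.76 in PBS. AAV-GFP 3 lay among the PBS arrays. With normexp the change was -0.20. The iron-binding lipocalin Lcn2, which hepatocytes also make, stood at -1.18, the resistin-like Retnlg at -0.78 (-1.21 without AAV-GFP 3), the gelatinase Mmp9 at -0.61 (-0.93 without it) and the growth factor receptor Csf3r at -0.32. The collagenase Mmp8 (0.20) and lactoferrin Ltf (0.05) were the 2 positive members, and the sign of both turned under other settings. Without AAV-GFP 3 they were -0.30 and 0.15.

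Of the 14 listed neutrophil genes, chosen with earlier results of these data known, 10 were tested. Elane, Ngp and Camp were too dim, and no probe carried the symbol Ly6g. Of the 10, 8 were negative, 4 had an unadjusted p under 0.05 (background 0.869%) and 3 did not overlap (background 0.353%). Only 4 of the 10 were above background on all 8 arrays, and members such as Cxcr2 and Mmp9 entered the test mainly through PBS, so these counts lean in part on the filter. The median change was -0.89 beside 0.02 over all genes, -0.20 with normexp and -1.11 without AAV-GFP 3. Within slides, the median change was -1.45, -1.42 and -0.11 on slides 1, 5 and 6. The mean list level was -3.27, -3.06, -1.87 and -2.27 in AAV-GFP 1 to 4 and between -1.996 and -1.79 in PBS, so AAV-GFP 1 and 2 were low and AAV-GFP 3 lay within the PBS range. In whole tissue, fewer cells of a type and less RNA per cell cannot be told apart.

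Other blood and immune cell lists were nearer to even. T cell and NK cell markers had 12 of 16 negative and a median of -0.09 (-0.20 without AAV-GFP 3), with the adhesion molecule Cd2 at -0.98 (-0.12 with normexp). B cell markers had 5 of 7 negative and a median of -0.25, with the inhibitory receptor Cd22 at -0.54. That median ran from -0.02 without AAV-GFP 4 to -0.45 without AAV-GFP 3 and was -0.59 with array weights. Erythroid genes, which read blood left in the tissue, had 5 of 6 negative and a median of -0.25, which was -0.02 without PBS 4, -0.56 without PBS 2 and 0.11 with array weights. Within slides 1, 5 and 6 it was 0.33, -0.82 and -0.39. Their summed linear level, in units of the 75th percentile, was 224.3 to 251.5 in AAV-GFP and 121.7 to 486.1 in PBS. The part of blood in the neutrophil difference was not tested. Kupffer cell and macrophage markers had 14 of 18 positive and a median of 0.17, which was -0.11 without PBS 1 and -0.17 with the slide as a block. PBS 1 had the lowest level of that list, and its Clec4f, a lectin of Kupffer cells, was at 2.79 where the other 7 arrays were at 4.28 to 4.79.

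Genes induced by interferon did not separate the groups. Of 30 tested members (32 listed), 21 were positive, 0 had an unadjusted p under 0.05 and 0 separated the groups, and the median change was 0.14, or 0.01 without AAV-GFP 3. The mean list level was 1.21, 1.51, 1.85 and 1.40 in AAV-GFP and 0.991, 1.52, 1.42 and 1.61 in PBS, fully interleaved but for AAV-GFP 3 at the top and PBS 1 at the bottom. The interval lay within 2-fold for 12 of the 30. The antiviral enzyme Rsad2 was at -0.40, 0.10, -0.41 and -0.40 in AAV-GFP and 0.02, 0.40, -0.13 and 1.63 in PBS, a change of -0.75 (interval -1.84 to 0.34). The immunity-related GTPase Iigp1 stood at 0.39 (0.19 without AAV-GFP 3), the guanylate-binding protein Gbp2 at -0.47 (-0.19 without it) and the entry restriction factor Ifitm3 at 0.24. In AAV-hGRB against the same PBS arrays the median of the list was 1.44.

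A list of innate sensors and adaptors that also holds the NF-kappa-B inhibitor Nfkbia and the cytokine genes Tnf, Il1b, Il6 and Ccl2 had 7 of 15 positive and a median of -0.17. That median was -0.11 without AAV-GFP 3, and 0.04 without AAV-GFP 1 and with array weights. Nfkbia, the inhibitor that NF-kappa-B induces against itself, was at 5.11, 5.24, 5.86 and 5.24 in AAV-GFP and 4.49, 4.67, 5.19 and 4.56 in PBS, a change of 0.63 (interval 0.07 to 1.20) in which only PBS 3 reached into the AAV-GFP range. Ticam1, the adaptor TRIF of Toll-like receptor 3, stood at -0.37 (interval -0.73 to -0.01). MHC class I genes had 3 of 8 positive and a median of -0.11, or 0.08 without AAV-GFP 3. Class II genes had 4 of 7 positive and a median of 0.07, or 0.13 without AAV-GFP 3. The sign of the class II median turned within slides, at -0.60, -0.12 and -0.78 for slides 1, 5 and 6, and it was -0.40 in the fit with a slide block and -0.30 without PBS 1.

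Cell cycle genes had positive changes in 19 of 20 tested members (25 listed, 52.2% of all genes positive). The list was chosen with earlier results of these data known, and its members share the same arrays, so this count is descriptive. The median was 0.42 beside 0.02 over all genes, and 0.27 with normexp, 0.46 with the slide as a block and 0.39 without AAV-GFP 3. Within slides 1, 5 and 6 it was 0.31, 0.35 and 0.64. Of the 20 tested members, 16 were above background on all 8 arrays. The members with an unadjusted p under 0.05 were 4, all higher (background 0.835%), and in 0 members did the groups separate. The promoters of 2 of these 4 are shown for the elements known from mitotic genes, the CCAAT box bound by NF-Y and the cell cycle homology region TTTGAA. The 250 bases before the start are RefSeq's on GRCm38.p6, at chr4:118437344-118437593 and chr7:135716380-135716629, both on the minus strand, with CCAAT and TTTGAA on either strand in capitals (ATTGG is CCAAT on the other strand).
Cdc20: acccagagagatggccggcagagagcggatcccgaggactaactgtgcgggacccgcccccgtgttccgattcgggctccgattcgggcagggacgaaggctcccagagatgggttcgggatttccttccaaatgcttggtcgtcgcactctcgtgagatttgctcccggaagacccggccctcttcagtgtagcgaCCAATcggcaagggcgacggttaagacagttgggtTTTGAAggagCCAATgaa
Mki67: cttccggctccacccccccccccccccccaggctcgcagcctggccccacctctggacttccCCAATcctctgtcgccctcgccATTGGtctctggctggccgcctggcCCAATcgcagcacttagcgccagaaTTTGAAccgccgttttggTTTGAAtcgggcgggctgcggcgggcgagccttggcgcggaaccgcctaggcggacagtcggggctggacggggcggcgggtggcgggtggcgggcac
Cdc20 holds 2 CCAAT and 1 TTTGAA, and Mki67 holds 3 and 2. Of the 16 tested cell cycle genes with a promoter entry, 13 hold CCAAT (81.2%) and 6 hold both motifs (37.5%). Of all 27025 promoters 37.5% hold CCAAT, 18.3% TTTGAA and 6.45% both. Of the 10848 tested genes with a promoter entry, 39.8% hold CCAAT, 13.6% TTTGAA and 5.01% both. These matches describe the genes of the list and say nothing of binding in these livers.

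Cdc20, an activator of the anaphase-promoting complex, was at -0.03, 0.56, 0.13 and -1.05 in AAV-GFP and at -1.59, -1.15, -1.35 and 0.05 in PBS. AAV-GFP 4 was low and PBS 4 high for their groups, and the change was 0.91 (interval 0.05 to 1.78). Mki67, a marker of proliferating cells, was at -0.89, -1.02, -1.24 and -1.84 in AAV-GFP and -2.69, -1.94, -1.87 and -1.30 in PBS, a change of 0.70 (interval 0.02 to 1.39), with 0.87 on its other probe. PBS 4 lay within the AAV-GFP range for Mki67 as well.

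Foxm1, the transcription factor of mitotic genes, was at -2.75, -2.80, -2.22 and -3.34 in AAV-GFP and -3.85, -3.18, -3.33 and -3.37 in PBS, a change of 0.65 (interval 0.14 to 1.17). The mitotic kinase Plk1 stood at 0.77, the cyclins Ccna2 and Ccnb2 at 0.47 and 0.50, the centromeric histone Cenpa at 0.51 and the ribonucleotide reductase subunit Rrm2 at 0.90. The replication clamp Pcna was the 1 negative member, at -0.15, and stood at 0.16 without AAV-GFP 3. The mean list level was -1.09, -0.801, -1.02 and -1.50 in AAV-GFP and -1.87, -1.37, -1.58 and -1.14 in PBS, so AAV-GFP 4 was lower than PBS 2 and PBS 4. Kupffer cell markers were also lowest in PBS 1, the array with the lowest cell cycle level, and their part in the cell cycle difference was not tested.

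**Figure D4:**
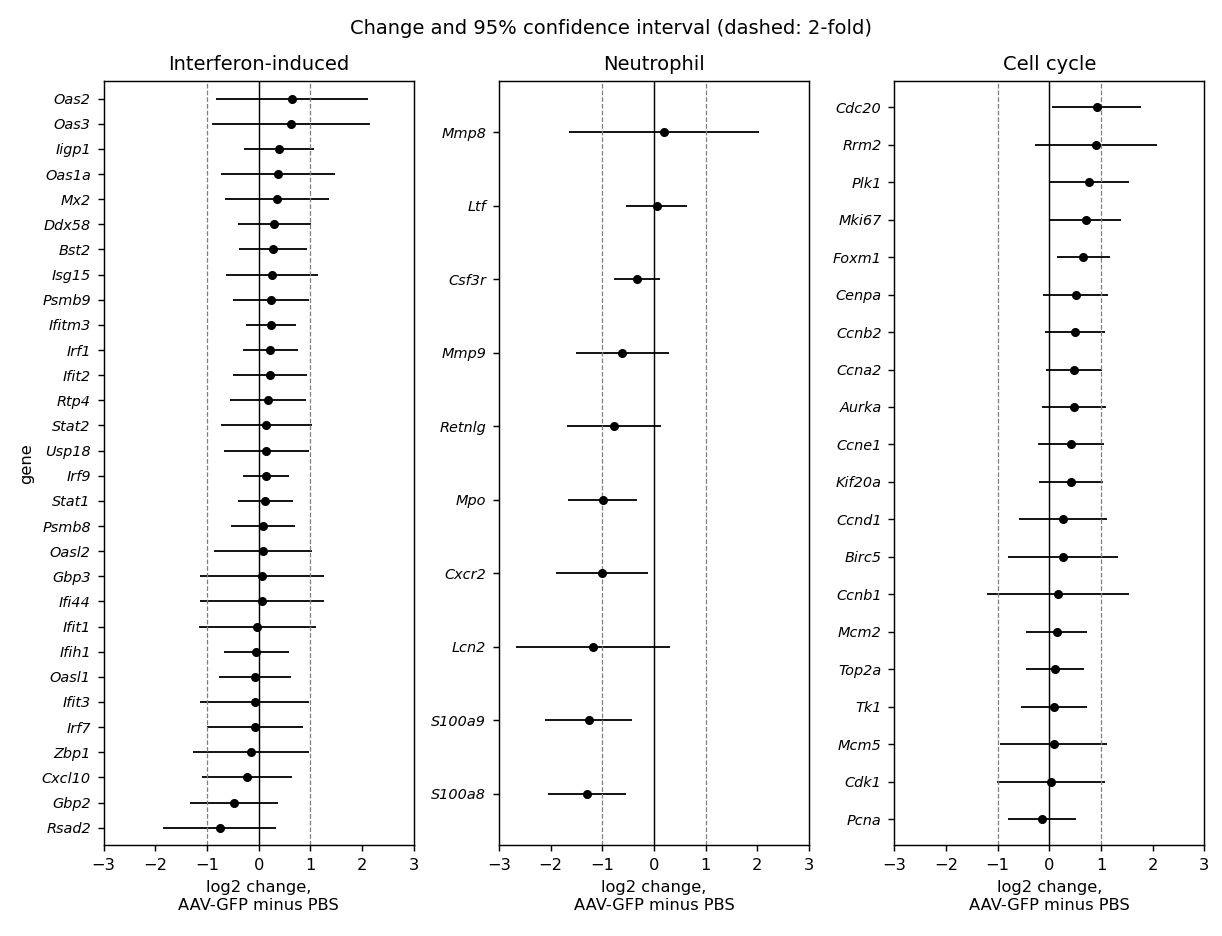
Log2 change of AAV-GFP minus PBS (horizontal) with its 95% confidence interval for each tested gene of the interferon-induced, neutrophil and cell cycle lists, with dashed lines at 2-fold. The interferon points lie on both sides of 0, 8 of 10 neutrophil points lie below it, and 19 of 20 cell cycle points lie above it.

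Genes that liver expresses more in males, under pulsed growth hormone, had mostly positive changes, with none past the threshold. This list too was chosen with earlier results of these data known, so its counts are descriptive. Of 18 tested (23 listed), 16 were positive (52.2% of all genes) and 2 had an unadjusted p under 0.05, both higher (background 0.835%), with a median of 0.33, or 0.38 without AAV-GFP 3 and 0.25 with the slide as a block. The within-slide medians were 0.06, 0.38 and 0.27. Bcl6, a repressor that growth hormone controls in liver, was at 5.09, 5.13, 5.45 and 3.56 in AAV-GFP and at 1.51, 5.19, 3.20 and 1.72 in PBS. PBS 2 was as high as the AAV-GFP arrays, the change was 1.90 (interval 0.27 to 3.53), and slide 1 gave -0.11. Hsd3b5, a male-specific steroid reductase, was at 5.81, 5.79, 4.79 and 5.77 in AAV-GFP and at 3.30, 5.65, 3.94 and 4.94 in PBS, a change of 1.08 (interval 0.06 to 2.10). PBS spread was the wider for both genes, with PBS 2 at the top.

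The fatty acid elongase Elovl3 stood at 1.11 and the organic anion transporter Slco1a1 at 0.66. The mean level of the male-biased list was 6.13 to 6.34 in AAV-GFP and 5.30 to 6.34 in PBS, with PBS 1 lowest and PBS 2 within the AAV-GFP range. Members of the major urinary protein family share near-identical sequence and cannot be told apart with certainty by these probes.

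Genes expressed more in females had 12 of 12 tested members negative (17 listed, 47.8% of all genes negative), with a median of -0.54 and 0 at an unadjusted p under 0.05. That median rested on 2 arrays, being -0.09 without AAV-GFP 3 and -0.16 without PBS 1. Within slides 1, 5 and 6 it was 0.38, 0.09 and -1.16. With the slide as a block it was -0.14, and with array weights -0.04. The cytochrome Cyp2b9 was at 3.97, 3.76, 1.67 and 2.82 in AAV-GFP and 3.94, 3.21, 3.84 and 3.81 in PBS, and Cyp2b13 at 2.26, 2.10, -0.88 and 1.27 against 1.90, 1.65, 1.81 and 2.31. In both, AAV-GFP 3 was the low array, and their changes of -0.64 and -0.73 were -0.18 and -0.04 without it. Cyp17a1, a steroid hydroxylase, stood at -0.55. The female-biased list was also chosen with earlier results of these data known, so its counts are descriptive.

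Genes that glucocorticoids induce through GR, the receptor knocked out here by the labels, had 11 of 21 positive and a median of 0.05. Apart from Angptl4, Pck1 and G6pc, no tested member had an unadjusted p under 0.05 (background 0.835% higher and 0.869% lower). Tsc22d3, the glucocorticoid-induced leucine zipper, was at 2.94, 3.27, 4.12 and 3.14 in AAV-GFP and 2.88, 3.15, 3.25 and 2.90 in PBS, a change of 0.32 that was 0.07 without AAV-GFP 3. Fkbp5, a co-chaperone of steroid receptors, was at -1.59, -2.95, 0.17 and -2.11 against -1.03, -2.03, -1.36 and -2.69, and its change of 0.16 was -0.44 without AAV-GFP 3. The clock gene Per1 stood at 0.11 with an interval of -1.08 to 1.31 and a sign that turned under other settings (-0.14 without AAV-GFP 3), and the kinase Sgk1 stood at 0.41.

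A corticosteroid list of receptors, enzymes, the binding globulin Serpina6 and the chaperones Hsp90ab1, Fkbp4, Stip1 and Ptges3 had 3 of 11 positive and a median of -0.03. Nr3c2, the mineralocorticoid receptor, which also binds glucocorticoids, was at -2.65, -2.97, -2.20 and -3.23 in AAV-GFP and -1.49, -1.87, -2.19 and -2.68 in PBS. PBS 4 lay within the AAV-GFP range and PBS 3 level with its highest array, and the change was -0.71 (interval -1.36 to -0.05), or -0.30 with normexp. Srd5a1, a steroid 5-alpha-reductase that inactivates glucocorticoids, stood at 0.59 (interval -0.05 to 1.23).

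Bile acid genes lay on both sides of 0, with 8 of 14 positive, a median of 0.03 (0.10 without AAV-GFP 3) and 2 at an unadjusted p under 0.05, both higher (background 0.835%). Slco1b2, the hepatocyte uptake carrier, was at 8.21, 8.40, 8.38 and 7.93 in AAV-GFP and 7.81, 7.74, 8.10 and 7.66 in PBS, a change of 0.40 (interval 0.01 to 0.79) in which PBS 3 overlapped AAV-GFP 4. The phospholipid flippase Abcb4 and the bile salt export pump Abcb11 stood at 0.53 and 0.69, and Cyp7a1, the rate-limiting enzyme of bile acid synthesis, at -0.65 (interval -1.52 to 0.22). Among targets of p53, 7 of 17 were positive with a median of -0.04, and Sesn2, a stress-induced regulator of nutrient signalling, stood at 0.90 (interval 0.11 to 1.70), or 0.64 without AAV-GFP 3.

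Some lists varied within groups more than between them. Adipocyte markers ran over a summed level of 38.94 to 202.3 in AAV-GFP and of 36.33 to 489.4 in PBS, with a median change of -0.13. Their secreted protease Cfd was at 4.83 in AAV-GFP 1 and 4.58 in PBS 4, and at 6.79 to 8.74 in the others. Bile duct markers had 7 of 8 positive and a median of 0.21, and their keratin Krt19 was at 2.79 in AAV-GFP 2 and between -1.61 and -0.04 in the other 7 arrays. Fat and bile duct content of the sampled pieces was not tested as a part of any difference above.

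**Figure D5:**
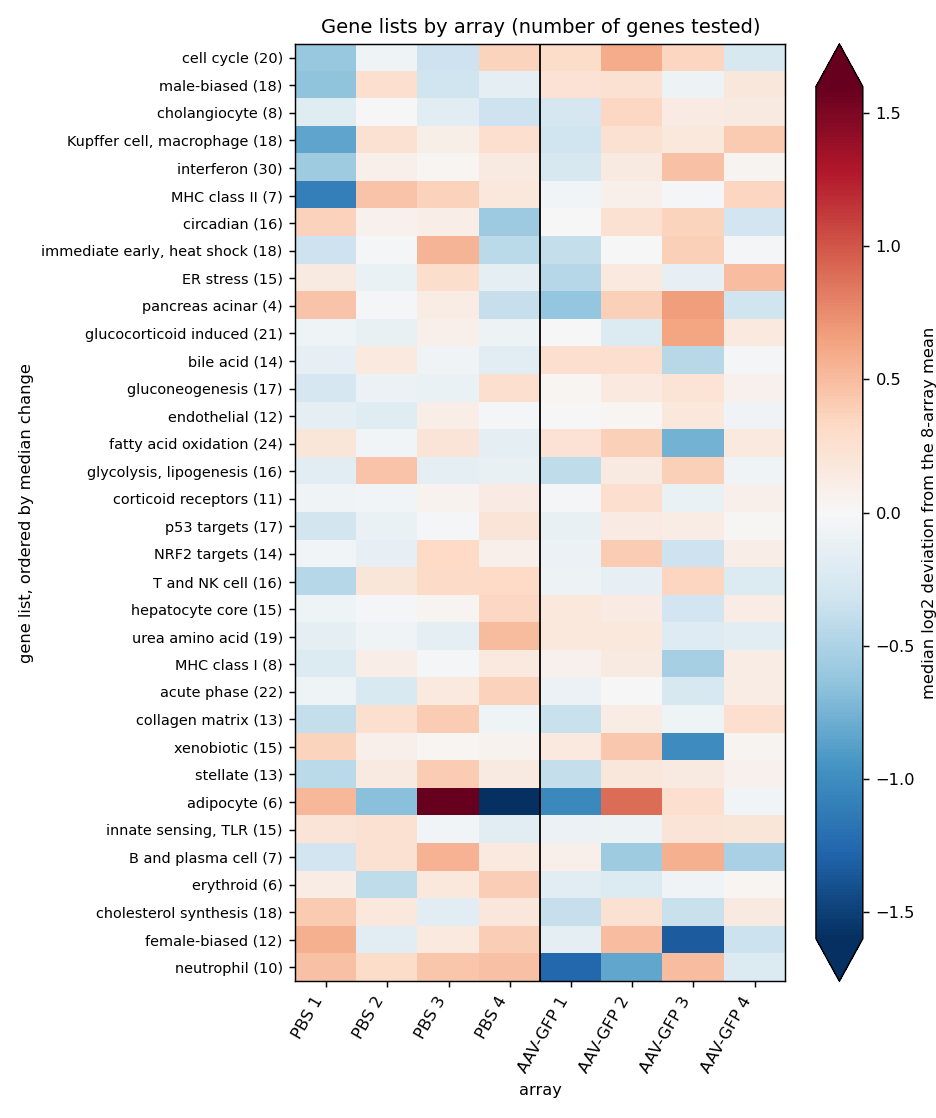
Each row is a gene list (number of genes tested), each column an array, PBS on the left of the line and AAV-GFP on the right, and the colour is the median log2 deviation of the list's genes from the mean of the 8 arrays. Neutrophil genes are below the mean in AAV-GFP 1, 2 and 4, cell cycle genes are above it in AAV-GFP 1, 2 and 3 and PBS 4, female-biased genes are lowest in AAV-GFP 3, and adipocyte genes vary most from array to array.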

How the data were processed

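Total RNA of 12 livers (500 ng per sample, per the labels' protocols) was labelled with Cy3 and hybridised to one-colour arrays, 4 each for AAV-GFP, PBS and AAV-hGRB. The deposited files are scanner output, with each spot's intensity in linear units. Agilent Feature Extraction wrote the processed intensity, in version 9.5.3.1 per the file headers and 9.5 per the submitters' processing notes. The deposited value table matches that intensity spot by spot, to a relative tolerance of 1e-06, and adds nothing. The 1639 control spots were left out, spots of a probe were averaged as log2 values computed from the deposited intensity, and each array's 75th percentile was subtracted. Probes that 4 or more of the 8 AAV-GFP and PBS arrays gave well above background were tested with limma 3.58.1 (R 4.3.3) in 1 fit of all 12 arrays and 3 groups, two-sided, with p-values adjusted by Benjamini and Hochberg's method across the tested probes and called under 0.05. The AAV-hGRB arrays only add to the estimate of spread. Intervals cover 95%. The number of arrays limits the precision.

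A gene is its brightest probe. Names come from RefSeq accessions for 22951 probes by systematic name and 131 by another accession, and from the array design for 18092. Probe positions are those of the design on mm7, and whether they are exonic or in a UTR was not analysed here. Named genes are the 12 of lowest p in each direction among genes whose groups did not overlap (none passed the threshold, and predicted and clone names were skipped), members of the gene lists, and Nr3c1, Pck1, G6pc, Fkbp5, Tsc22d3, Per1, S100a8, S100a9, Mki67 and Hsd3b5. From most lists only the 5 members of lowest p were eligible, and from the neutrophil, cell cycle, male-biased, gluconeogenesis and glucocorticoid lists all. The members and lists were chosen with earlier results of these data known. Other scalings, normexp (offset 50), filters on dim probes, slide and replicate blocks, array weights and each array left out were tried. The fit was tested on simulated data.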

Additional observations from a re-analysis of the deposited data

Results flagged for a closer look

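A sample far from the other 3 of its group, its gap to the nearest of them past Dixon's critical share of the group's range, was found in 22 of 226 groups of 4 checked, where chance gives about 1 in 20, and the groups are not independent since they share arrays. AAV-GFP 3 was highest for Fam3b (-2.88) and Pck1 (9.06) and lowest for Hsd3b5 (4.79) and the fatty acid oxidation list (4.33). PBS 1 was highest for Stac (-0.42) and lowest for Ifitm3 (5.79), Clec4f (2.79), Abcb11 (6.34) and the Kupffer cell (1.15) and stellate cell (0.51) lists. AAV-GFP 4 was lowest for Plk1 (-3.27) and Ccnb2 (-1.30), AAV-GFP 1 for Clec4f (4.28) and Cfd (4.83), and PBS 4 for Mmp8 (-5.54). AAV-GFP 2 was highest for Slc35g1 (2.63) and Rsad2 (0.10), and PBS 3 for Trib3 (1.94). PBS 2 was highest for Lnpk (-3.74) and for the lists of glycolysis and lipogenesis (4.42) and bile acids (4.95), and lowest for Cyp2b9 (3.21).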

How the results depend on the processing

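The count of called probes stayed at 0 under all 19 alternatives. Leaving out 1 array gave 224 (PBS 1) to 761 (PBS 3) probes at an unadjusted p under 0.05, and 666 without AAV-GFP 3. The replicate block gave 0 calls and 430 such probes. The labels do not say whether the numbers pair the samples. Deviations of same-numbered arrays correlated from -0.25 to 0.63, which does not settle it. The 3 pairs that share a slide, of which 1 also shares a number, correlated at 0.25, 0.49 and 0.63, and all other pairs at -0.50 to 0.39. With the slide as a random block over all 12 arrays, the estimated correlation within a slide was 0.03, with 0 calls and 438 such probes. With the slide as a fixed block there were 0 calls and 235 such probes. Without AAV-GFP 4, the array scanned on another day, there were 0 calls and 483. Among the genes with a sign that turned, Nr3c1 stood at 0.02 with median scaling and with normexp, Fkbp5 at -0.25 with array weights, Per1 at -0.03 with normexp and -0.46 with array weights, Mmp8 at -0.43 with the slide as a block, Pcna at 0.14 with array weights and Alb at -0.05 with quantile scaling. Leaving out 1 array gave ranges of -0.10 to 0.07 for Nr3c1, -0.44 to 0.60 for Fkbp5, -0.47 to 0.50 for Per1, -0.54 to 0.83 for Mmp8, -0.10 to 0.22 for Ltf, -0.35 to 0.16 for Pcna and -0.97 to 0.42 for Cfd. The cause was not tested. Of 34 list medians 9 turned sign under another scaling or normexp, 6 with the slide as a block, 22 without some array and 17 with array weights, the interferon list among the last. The neutrophil, cell cycle, male-biased and female-biased medians kept their sign in all of these, the female-biased at only -0.04 with array weights. So did the medians of the T and NK cell, B cell, stellate cell, bile duct and cholesterol synthesis lists, so a kept sign is not particular to the lists described at length. Normexp shrank the neutrophil median and the Ephx3 and Clcn6 changes.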
